A study of Rattus norvegicus with 66 samples.

Results

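Mitochondria keep a small circular genome of their own. Besides ribosomal and transfer RNAs it encodes a few proteins, which are core subunits of the respiratory chain and of ATP synthase, while the many other subunits of these complexes come from nuclear genes. Both strands are read into long precursor RNAs that are cut at the tRNAs between the coding genes, so that several mRNAs share a precursor, and ND6 is the one protein gene read from the light strand. Neurons draw most of their ATP from this chain, and mitochondrial mRNAs are abundant in brain tissue.

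The genes described here are 10 of these protein genes, taken as the entries of the gene map with the symbols ND1, ND2, ND4, ND5, ND6, COX1, COX2, COX3, ATP6 and CYTB, out of 37777 entries in the map. ND1, ND2, ND4, ND5 and ND6 (NCBI genes 26193, 26194, 26201, 26202 and 26203) encode subunits of complex I, which takes electrons from NADH. CYTB (26192) encodes cytochrome b of complex III, COX1, COX2 and COX3 (26195, 26198 and 26204) the catalytic core of complex IV, cytochrome c oxidase, and ATP6 (26197) a subunit of the proton channel of ATP synthase. Each symbol had 1 entry, and each gene had counts in all 66 libraries, from 319 to 2834 for ND6 to 178131 to 1516216 for COX1. The set was put together with earlier results of these data known, because ND1, ND2 and ATP6 were higher in males of the low bisphenol A dose. Values of that group are therefore given as a description with no test. The mitochondrial genome has 37 entries in the map, and the other 27, which are 3 protein genes, 2 rRNAs and 22 tRNAs, are used for comparison. The counts come with no coordinates, and sequences of the mitochondrial genome were not used here.

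RNA of left and right dorsal hippocampus, with a small part of the laterally adjacent cortex, was sequenced from 41 male and 23 female Long Evans rat pups on postnatal day (PND) 6. Dams of the Aroclor 1254 groups (a mixture of polychlorinated biphenyls) and of the bisphenol A groups received the chemical in soy-free chow from 2 weeks before mating until PND 6, at 5 mg/kg (Aro5, BPA5) or 0.5 mg/kg (Aro0.5, BPA0.5). Dams of the chlorpyrifos groups were injected subcutaneously with this organophosphate insecticide during pregnancy and again after birth, at 3 mg/kg (CPF3) or 1 mg/kg (CPF1). Feeding controls (CONF) had the soy-free chow alone, and injection controls (CONSC) had the vehicle, which is saline in the sample labels and DMSO in the study's methods. Males were 4 CONF, 5 CONSC, 4 Aro0.5, 4 BPA0.5, 4 CPF1, 6 Aro5, 7 BPA5 and 7 CPF3 pups, and females were 5 CONF, 5 CONSC, 5 Aro5, 4 BPA5 and 4 CPF3 pups, with no female pups at the low doses. Exposure went through the dam, and apart from 2 litters with a pair of pups of 1 sex in 1 group, each litter gave 1 pup of a sex. CONF and CONSC were combined within each sex, as the study did.

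Total counts ranged from 10644138 to 86206550 per library. Library names took 2 forms, here called A and B, which followed the dose in males: 9 control and 12 low-dose libraries had form A, 20 high-dose libraries and 1 control library form B. In control females 5 libraries had form A and 6 form B, and the names of the 13 high-dose females did not allow a form to be read. CONF male N2-2y and CONF female N4-3x each had 1 library of each form, summed for the pup. The labels give both libraries of N2-2y the same time of dissection, but those of N4-3x 12.09 h and 11.55 h, so that N4-3x is 1 animal by its litter and pup number alone. What the forms stand for (a run, a day or a protocol) is given neither by the labels nor by the study's methods. The study mentions a second sequencing of female samples, without saying which libraries it gave. Markers of hippocampal and forebrain neurons were present in every group (summed level 348 ± 65.2 CPM over all pups, SD, n = 64, where CPM is a gene's count per 1000000 counts of all genes). The dissected piece also held RNA of neighbouring tissue, as 4 thalamus markers summed to 294 ± 109 CPM and 5 choroid plexus markers to 2388 ± 824 CPM (SD, n = 64). In such bulk tissue a change in the number of cells of a type and a change in RNA per cell cannot be told apart.

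Taken over all pups, 7.05% ± 0.947 (SD, n = 64) of a library's counts fell on the 10 genes, with a range from 5.37% to 9.78%. Control males gave 6.69% ± 0.483 (SD, n = 9), with 7.01% ± 0.470 in CONF (n = 4) and 6.44% ± 0.351 in CONSC (n = 5). The 4 Aro0.5 males had 8.70% ± 0.548 and the 4 BPA0.5 males 8.78% ± 1.09 (SD), whereas the 4 CPF1 males had 6.62% ± 0.355. The lowest Aro0.5 pup, at 7.92%, and the lowest BPA0.5 pup, at 7.82%, both lay above the highest control male at 7.63%. Values of BPA0.5 and control males led to the choice of the genes, so that nothing is read from the BPA0.5 separation or its place among the groups. High-dose males had 6.64% ± 0.912 in Aro5 (n = 6), 6.78% ± 0.657 in BPA5 (n = 7) and 6.36% ± 0.718 in CPF3 (n = 7). Females had 6.85% ± 0.653 in controls (n = 10), 7.29% ± 0.949 in Aro5 (n = 5), 7.13% ± 0.561 in BPA5 (n = 4) and 7.39% ± 0.517 in CPF3 (n = 4). Put in order, the 13 groups ran from BPA0.5 and Aro0.5 males through the high-dose females, CONF males and control females to the other males, with CPF3 males last. Neighbours in this order overlapped, apart from the step between Aro0.5 males and the next group, CPF3 females, whose highest pup had 7.76%.

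**Figure D1:**
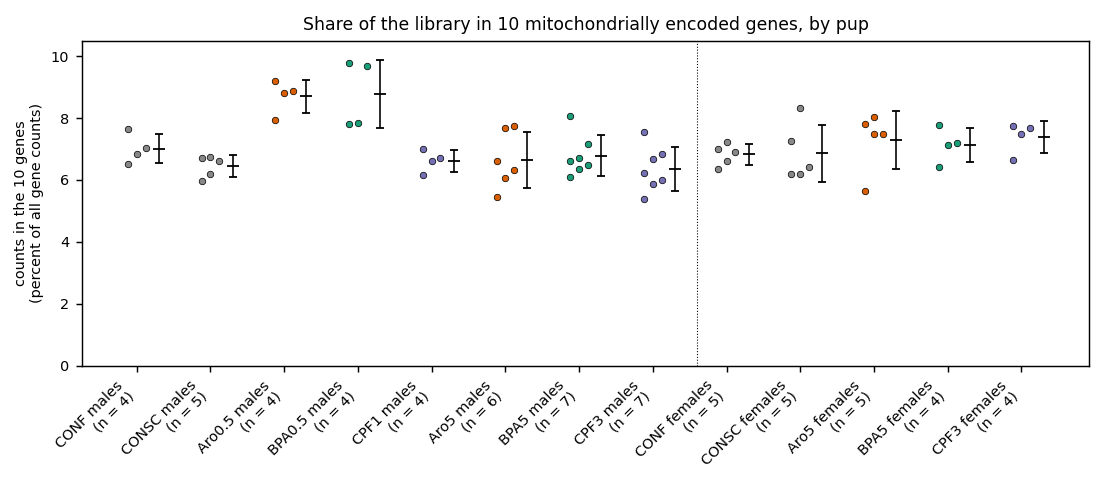
Percent of all gene counts that fell on the 10 mitochondrially encoded genes (y axis, from 0) in each of 64 pups (points) of the 13 groups (x axis, males left and females right of the dotted line), with mean ± SD beside the points. Pups of Aro0.5 and BPA0.5 males lie between 7.82% and 9.78%, above the control males at 5.96% to 7.63%. The genes were chosen with the BPA0.5 difference known, and nothing is read from the place of that group.

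Whether the low doses changed the hippocampal transcriptome of males was asked with 9 controls against 4 pups per dose. In Aro0.5 males 7 of the 10 genes rose, with fitted folds of 1.35 to 1.42 (quasi-likelihood test of edgeR, adjusted after Benjamini and Hochberg over 16139 genes). Of all genes tested, 0.124% passed the same threshold of adjusted p under 0.05 in either direction and 0.0806% did so as higher, which was 13 genes, and 0.0434% as lower. Of these 13 genes, 8 were mitochondrially encoded, the 7 described here and ND3, a further complex I subunit (log2 fold change 0.43, SE 0.08, adjusted p = 0.027). The median log2 fold change was 0.44 for the 10 genes and 0.00 for all genes tested. The 9 control males also entered the comparison by which the genes were chosen, so that the Aro0.5 result is not independent of that choice.

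Among complex I genes, ND1 stood at 8212, 9680.3, 9129 and 9704 CPM in Aro0.5 pups 105-5y, 106-3y, 94-3y and 98-8y, against 5826 to 8192 CPM (median 6597) in the 9 controls. Pup 105-5y was the lowest of the 4 for ND1 and came within 20 CPM of the highest control, and the groups did not overlap. Over all 16139 genes, 0.192% (31 genes) had every Aro0.5 pup above every control. ND1 was thus higher by 0.51 on the log2 scale (SE 0.09, adjusted p = 0.017 by edgeR's test). ND2 stood at 8249, 9956, 9634 and 9548 CPM in the same order of pups, against 6431 to 8132 CPM (median 6992) in controls, again without overlap (log2 fold change 0.48, SE 0.08, adjusted p = 0.017).

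The other complex I genes were not called in Aro0.5 males. ND4 had 326, 324, 327 and 327 CPM in these pups, closely together, against 213 to 332 CPM in controls (log2 fold change 0.33, SE 0.10, adjusted p = 0.13). ND5 had 2699, 2567, 2726 and 2474 CPM, inside the control range of 1975 to 3086 CPM (log2 fold change 0.16, SE 0.09, adjusted p = 0.33). ND6, of the light strand, had 73.6, 89.8, 85.4 and 66.5 CPM against 72.4 to 106 CPM in controls (log2 fold change -0.11, SE 0.13, adjusted p = 0.66). By this test ND1 and ND2 were thus called higher in Aro0.5 males, while ND4, ND5 and ND6 were not. The genes were not tested against each other, and an absent call does not show that ND4 or ND5 stayed unchanged.

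CYTB of complex III had 10194, 11433, 10798 and 10863 CPM in Aro0.5 pups against 7479 to 9445 CPM (median 8379) in controls, higher by 0.44 on the log2 scale (SE 0.08, adjusted p = 0.017). Among the complex IV genes, COX1 had 19251, 22735, 21423 and 22012 CPM against 14000.1 to 18688 CPM (median 16698), higher by 0.45 (SE 0.08, adjusted p = 0.017). COX2 and COX3 had log2 fold changes of 0.43 and 0.45 (SE 0.08 each, adjusted p = 0.017 each), from 8317 ± 461 and 10626 ± 752 CPM in Aro0.5 (SD, n = 4) against 6473 ± 447 and 8173 ± 574 CPM in controls (SD, n = 9). In each of these 4 genes all Aro0.5 pups lay above all controls. ATP6 had 12850.2, 15115, 14689 and 14624 CPM against 9836 to 12268 CPM (median 10772), also without overlap (log2 fold change 0.47, SE 0.08, adjusted p = 0.017). Pup 105-5y was the lowest of the 4 for each of the 7 genes called.

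**Figure D2:**
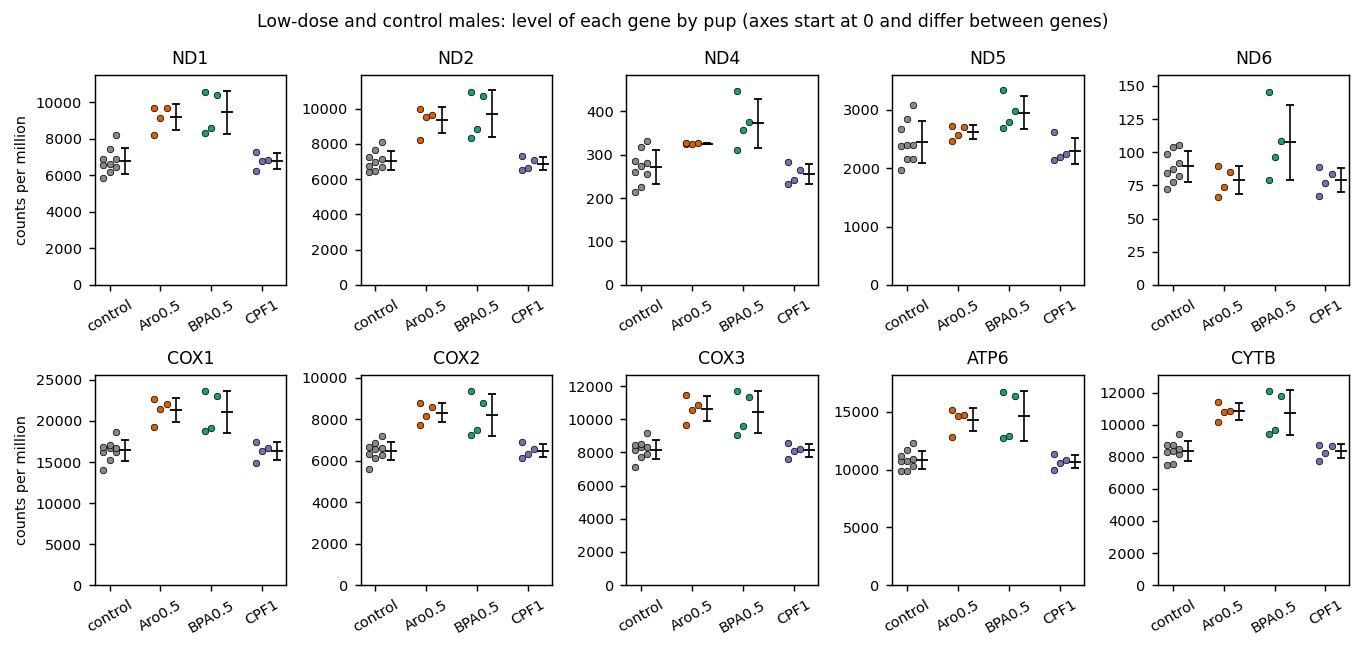
Level of each gene in CPM (y axes, each from 0) in every control (n = 9), Aro0.5, BPA0.5 and CPF1 male pup (n = 4 each; points), with mean ± SD. For ND1, ND2, COX1, COX2, COX3, ATP6 and CYTB the Aro0.5 points lie above all control points, while those of ND5 and ND6 lie among or below them and CPF1 points lie in or near the control range for all 10 genes.

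These Aro0.5 calls rested on few pups. None of the 7 genes passed the threshold without pup 106-3y (log2 fold changes 0.39 to 0.46, adjusted p = 0.072), without 94-3y (0.40 to 0.49, adjusted p = 0.13) or without 98-8y (0.42 to 0.46, adjusted p = 0.080 to 0.088), against 0.43 to 0.51 with all pups. None of them passed it either with CONF males alone as controls (log2 fold changes 0.36 to 0.40, adjusted p = 0.32) or with only the pups dissected from 10.30 to 13.20 h, the study's time window (0.39 to 0.44, adjusted p = 0.12 to 0.16), all by edgeR's test. DESeq2 gave the same 7 members (adjusted p = 7.0e-05 to 8.4e-05), and with normalization factors set without the mitochondrial genome edgeR called 7 at 0.43 to 0.50. Aro0.5 libraries were deeper, with 24689291 to 32005323 counts against 10777044 to 18045602 in single libraries of control males. Control N2-2y, summed over its 2 libraries, entered the fit with 34218370 counts. Thalamus markers summed to 421 ± 84.9 CPM (304 to 492) in Aro0.5 against 298 ± 112 CPM (183 to 524) in control males, and choroid plexus markers to 2113 ± 940 CPM (839 to 3085) against 2763 ± 832 CPM (1257 to 3884). Erythroid markers summed to 649 ± 202 CPM (465.6 to 875) against 708 ± 168 CPM (454 to 989). None of the markers in these 3 lists was called or at 0 in every pup, and the part of depth and of other tissue in the result was not tested.

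The other entries of the mitochondrial genome did not all move with the 7 genes in Aro0.5 males. ATP8, a further ATP synthase subunit, and ND4L of complex I had log2 fold changes of 0.28 (SE 0.07, adjusted p = 0.12) and 0.25 (SE 0.09, adjusted p = 0.19) by edgeR's test. The rRNAs Rnr1 and Rnr2 had 0.28 (SE 0.10) and 0.05 (SE 0.09) without a call. Of 15 tRNA entries with enough counts to be tested, 13 had log2 fold changes below 0, with a range from -0.94 to 0.34. None of the 15 was called by edgeR, and 9 had an unadjusted p under 0.05, as had 18.5% of all genes tested. Libraries were made from poly(A) RNA, and what mature tRNAs, which carry no poly(A) tail, contributed to these entries was not tested.

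BPA0.5 males, the group whose values led to the choice of the genes, had higher levels of each of the 10 genes than controls on the fitted scale. Log2 fold changes were 0.51 for ND1 (SE 0.09), 0.49 for ND2 (SE 0.08), 0.49 for ND4 (SE 0.10) and 0.47 for ATP6 (SE 0.08), then 0.39 for COX1 and CYTB, 0.38 for COX3, 0.37 for COX2, 0.30 for ND5 and 0.29 for ND6. The pups fell into 2 pairs. Pups 72-4y and 73-4y had 10546 and 10381 CPM of ND1 and 16381 and 16674 CPM of ATP6, and pups 69-4y and 75-1y had 8309 and 8587 CPM of ND1 and 12731 and 12874 CPM of ATP6. ND2 followed the same split, with 10942 and 10734 CPM in the first pair and 8317 and 8819 CPM in the second. For ND1, ND2 and ATP6 even the lower pair lay above the highest of the 9 controls, a separation that 0.112% of the 16139 genes showed and from which nothing is read, since these values chose the genes. ND6 had 96.5, 146, 108 and 79.0 CPM in 69-4y, 72-4y, 73-4y and 75-1y against 72.4 to 106 CPM in controls, with 2 pups above the control range. ND5 of these pups, at 2698 to 3335 CPM, overlapped with the control range up to 3086 CPM.

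CPF1 males did not show such differences. The log2 fold changes of the 10 genes ran from -0.16 for ND6 (SE 0.13) to 0.01 for COX2 (SE 0.08), and ND1 had 6233, 6826, 6791 and 7276 CPM, inside the control range. None of the 10 was called by edgeR (adjusted p = 0.997 to 1) or by DESeq2, and none of them had an unadjusted p under 0.05. Of all 16139 genes 0% were called by either tool, with 322 (2%) at an unadjusted p under 0.05. Set directly against CPF1, Aro0.5 males had log2 fold changes of 0.42 to 0.50 for the 7 genes, with the highest value for ND2 (SE 0.10). These differences were not called by edgeR (adjusted p = 0.13 to 0.16), which called 0% of 16139 genes in that comparison and gave 1171 (7.26%) an unadjusted p under 0.05. DESeq2 called the same 7 of the 10 genes (adjusted p = 0.0022 to 0.0027) among 27 in all.

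At the high doses, where males of 3 treatments were compared with the same 9 controls, ND6 fell in each. ND6 log2 fold changes were -1.06 in Aro5 (SE 0.12, adjusted p = 2.3e-06), -0.92 in BPA5 (SE 0.11, adjusted p = 9.7e-06) and -0.88 in CPF3 (SE 0.11, adjusted p = 2.4e-05) by edgeR's test. Lower calls made up 0.122%, 0.104% and 0.11% of 16393 genes in the 3 comparisons, and calls in either direction 0.195%, 0.189% and 0.159%. The controls ranged from 72.4 to 106 CPM of ND6 (median 87.2), with N2-2y, the pup with 2 libraries, lowest. ND6 ranged from 29.7 to 59.1 CPM in Aro5 (median 42.4), from 39.7 to 56.1 CPM in BPA5 (median 46.7) and from 41.8 to 59.9 CPM in CPF3 (median 45.8). No high-dose male reached the lowest control, which was so for 0.0549% of the 16393 genes. That control, N2-2y, is the sum of 1 library of each name form. Its form B library alone, the form of all high-dose males, had 46.1 CPM of ND6 and lay within the high-dose range. The call held in all 3 comparisons without each of the 29 pups in turn.

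None of the other 9 genes was called in high-dose males by edgeR or DESeq2, so that a fall of the whole set did not appear. Log2 fold changes of these 9 ran from -0.14 to 0.35 in Aro5, from -0.10 to 0.21 in BPA5 and from -0.19 to 0.18 in CPF3, with 2, 0 and 1 of them at an unadjusted p under 0.05, which 11.8%, 9.1% and 12.6% of all genes had. The upper end was ND5 each time, with 0.35 in Aro5 (SE 0.12, adjusted p = 0.26), 0.21 in BPA5 (SE 0.12) and 0.18 in CPF3 (SE 0.12). ND5 had 2091 to 3989 CPM in Aro5 males (median 2944), which reached beyond the control range of 1975 to 3086 CPM at the upper end. With the pups dissected in the study's time window alone, ND5 was called higher in Aro5 (log2 fold change 0.52, adjusted p = 0.039 by edgeR's test), among 818 genes called in either direction. The lower end was COX2 each time, with 5824 ± 633 CPM over the 20 high-dose males against 6473 ± 447 CPM in controls. ND6 per 1000 counts of the other 9 genes was 1.34 ± 0.187 in control males (SD, n = 9) and 0.699 ± 0.0933 in high-dose males (SD, n = 20). The 3 high-dose male groups were also compared among themselves. None of the 10 genes was called by edgeR or DESeq2 in the 3 pairs and none had an unadjusted p under 0.05 (4.4%, 4.17% and 2.7% of all genes), with ND6 differences of 0.14 (SE 0.12) between BPA5 and Aro5, 0.19 (SE 0.12) between CPF3 and Aro5 and 0.05 (SE 0.12) between CPF3 and BPA5.

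**Figure D3:**
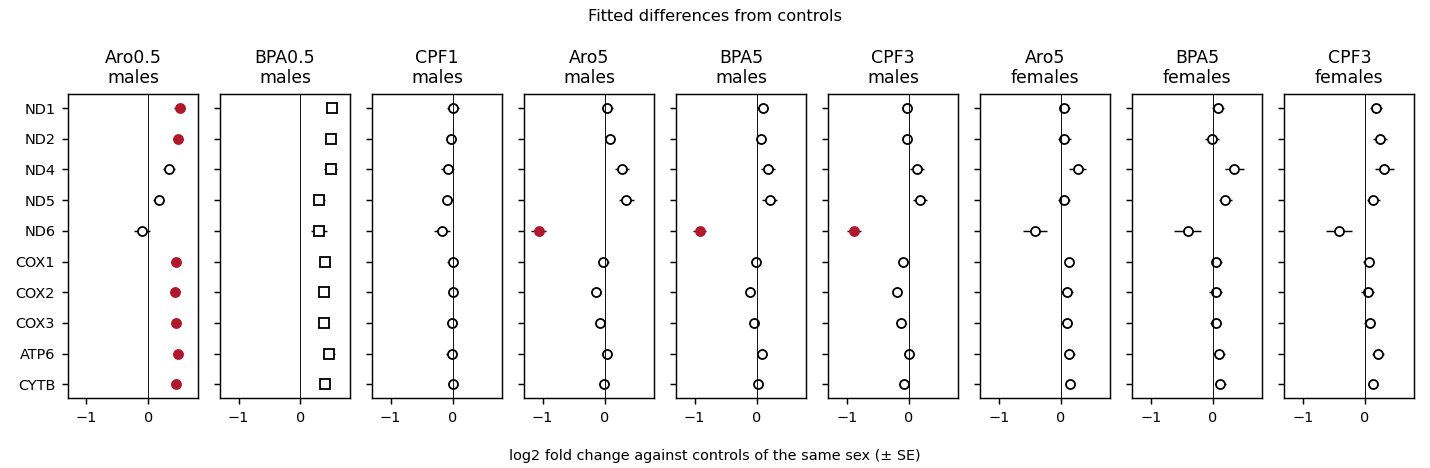
Fitted log2 fold change (x axis, ± SE) of the 10 genes (y axis) against controls of the same sex for 9 treated groups. Filled red points have an adjusted p under 0.05, open circles do not, and open squares mark BPA0.5, whose values chose the genes and are shown with no test; ND6 is at -1.06, -0.92 and -0.88 in the high-dose males, but near 0 there with the form of library name as a covariate.

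The fall of ND6 went along with the form of the library names. ND6 was 92.4 ± 10.1 CPM in 9 control male libraries of form A (77.9 to 106) and 88.4 ± 21.6 CPM in 12 low-dose male libraries of form A (66.5 to 146). It was 46.0 ± 7.63 CPM in the 20 high-dose male libraries of form B (29.7 to 59.9), and 46.1 CPM in the single control male library of form B. That library and one of form A came from the same pup, N2-2y, which had 101 CPM of ND6 in form A (95% exact Poisson interval 95.9 to 106) and 46.1 CPM in form B (43.0 to 49.4). The control female with 2 libraries, N4-3x, had 49.6 CPM (47.1 to 52.2) in form A and 22.4 CPM (20.3 to 24.8) in form B. These intervals cover counting error only. Form B over form A was thus 0.458 for ND6 in N2-2y and 0.452 in N4-3x, while the other 9 genes had ratios of 0.797 to 0.923 in N2-2y and 1.04 to 1.51 in N4-3x.

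Control females, which no treatment separates, showed the same split for ND6. Their 5 libraries of form A had 56.4 ± 4.50 CPM of ND6 (49.6 to 61.8) and their 6 libraries of form B 29.0 ± 3.65 CPM (22.4 to 32.7), and the same lack of overlap with form B lower was found for 3.07% of 16992 genes. The 13 high-dose females had 31.4 ± 5.87 CPM of ND6 (21.7 to 42.1), near the form B controls. With the form as a covariate and libraries entered separately, the ND6 difference of high-dose males was -0.10 in Aro5, 0.037 in BPA5 and 0.083 in CPF3. This fit called 0 of 16391 genes in each comparison, so that the lost call was not particular to ND6. Its form effect rests on the single control library of form B. With the form B library of N2-2y as the only control, which was added once the values were known, ND6 differed by -0.11, 0.032 and 0.079. Within form B these comparisons rest on 1 control pup. In males, high dose and form cannot be told apart for ND6.

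**Figure D4:**
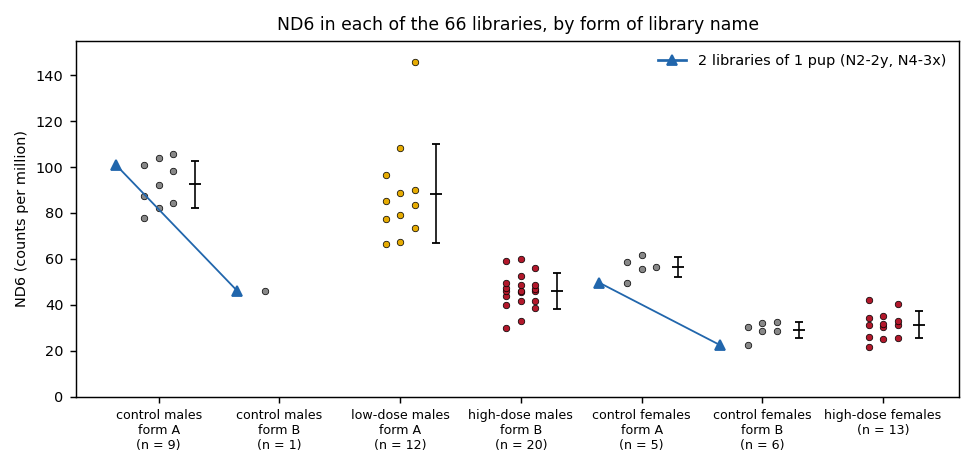
ND6 in CPM (y axis, from 0) in each of the 66 libraries (points), grouped by sex, dose and form of library name (x axis), with mean ± SD beside the points. Lines join the 2 libraries of male N2-2y (101 and 46.1 CPM) and of female N4-3x (49.6 and 22.4 CPM), drawn as triangles and also among the points; form B libraries lie below form A libraries in control pups of both sexes.

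The remaining light-strand RNAs of the mitochondrial genome are tRNAs, and 8 such entries were summed, a list chosen after the values had been seen. They came to 8.92 ± 0.955 CPM in control male libraries of form A (n = 9), 5.18 CPM in the control male library of form B and 5.65 ± 1.41 CPM in high-dose males (SD, n = 20). Low-dose males, which are of form A, had 6.64 ± 1.502 CPM (SD, n = 12). Control females had 7.27 ± 2.07 CPM in form A (n = 5) and 4.41 ± 1.57 CPM in form B (n = 6), and high-dose females 5.00 ± 1.43 CPM (n = 13). The 2 libraries of N2-2y had 7.65 and 5.18 CPM and those of N4-3x 3.71 and 2.38 CPM, lower in form B in both pups. The sum of 12 heavy-strand tRNA entries (without Trni and Trnw) was also lower in form B in both, with 66.2 and 47.0 CPM in N2-2y and 63.5 and 58.1 CPM in N4-3x. In these 2 pups a lower tRNA sum in form B was thus not particular to the light strand. Over control libraries this heavy-strand sum was 56.7 ± 6.80 CPM in form A males (n = 9), 66.6 ± 3.40 CPM in form A females (n = 5) and 62.1 ± 11.8 CPM in form B females (n = 6). High-dose males, of form B, had 53.4 ± 9.45 CPM (SD, n = 20) and low-dose males, of form A, 43.5 ± 8.06 CPM (SD, n = 12). Among treated males the heavy-strand sum was therefore not lower in form B. Among single tRNA entries, Trnp and Trns1, both of the light strand, were called lower in Aro5 males, with log2 fold changes of -1.06 (adjusted p = 0.017) and -0.84 (adjusted p = 0.039) by edgeR's test. Lower calls made up 0.122% of all genes there. Of 15 tRNA entries tested 13 were below 0, down to -1.11 in an entry that was not called. An unadjusted p under 0.05 was found for 7 of them, against 11.8% of all genes. All Aro5 male libraries were of form B.

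ND6 was also lower in females than in males at a given form, which was not tested. Whether males and females were sequenced together is not stated, so that sex and sequencing cannot be told apart for ND6. Control males of form A lay between 77.9 and 106 CPM of ND6 and control females of form A between 49.6 and 61.8 CPM, a separation in this direction that 1.37% of 17282 genes showed. The library of form B of male N2-2y, at 46.1 CPM, lay above the 6 control female libraries of form B at 22.4 to 32.7 CPM. The other 9 genes showed no such separation, as for ND1 with 6785 ± 701 CPM in control males (n = 9) and 6968 ± 634 CPM in control females (n = 10), or for COX1 with 16410.5 ± 1289 and 16176 ± 1717 CPM. Over the 13 groups, ND6 was highest in BPA0.5 males at 107 ± 28.2 CPM, followed by CONSC males (90.2 ± 11.5), CONF males (88.1 ± 13.2), CPF1 males (79.1 ± 9.25) and Aro0.5 males (78.8 ± 10.7). High-dose males and control females came next with means of 37.9 to 48.3 CPM of ND6, and high-dose females last with means of 31.1 to 31.7 CPM. Neighbouring groups overlapped, apart from the step between Aro0.5 males, whose lowest pup had 66.5 CPM, and CPF3 males, whose highest had 59.9 CPM of ND6.

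In females none of the 10 genes was called at the high doses by edgeR or DESeq2. Log2 fold changes ran from -0.42 for ND6 to 0.27 for ND4 in Aro5, from -0.41 to 0.34 for the same genes in BPA5 and from -0.41 to 0.31 in CPF3. At an unadjusted p under 0.05 stood ND6 in Aro5 (SE 0.19, adjusted p = 0.999), ND4 in BPA5 (SE 0.15, adjusted p = 0.93), and ND2 (log2 fold change 0.24, SE 0.11) and ATP6 (0.21, SE 0.10, adjusted p = 0.55 for both) in CPF3. Of 16992 genes 0% were called by edgeR in each of the 3 comparisons, with 548 (3.23%), 694 (4.08%) and 1493 (8.79%) at an unadjusted p under 0.05, and DESeq2 called 1, 1 and 3 genes. ND2 in CPF3 females spread widely, with 8598 ± 1489 CPM (SD, n = 4) and a range from 6875 to 10312 CPM, against 7416 ± 771 CPM in controls (SD, n = 10). ND4 was 249 ± 31.6 CPM in control female libraries of form A and 359 ± 55.6 CPM in those of form B, so that in control females it moved in the direction opposite to ND6. Female N4-3x had 300 CPM of ND4 in form A and 451 CPM in form B. Male N2-2y went the other way, with 371 CPM in form A and 296 CPM in form B. With form B control females alone, again added once the values were known, ND6 differed by 0.11, 0.12 and 0.12 and ND4 by 0.00, 0.07 and 0.04 in Aro5, BPA5 and CPF3.

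Whether a treatment acted differently on the sexes was tested by an interaction of sex and treatment. None of the 10 genes was called for Aro5, BPA5 or CPF3 by edgeR or DESeq2, where edgeR called 0.0984%, 0.0405% and 0.0463% of 17282 genes. ND6 differed by 0.64 (SE 0.22, adjusted p = 0.41), 0.52 (SE 0.22, adjusted p = 1.0) and 0.46 (SE 0.22, adjusted p = 0.87), female minus male, and stood at an unadjusted p under 0.05 in all 3, as did 8.92%, 2.79% and 5.6% of all genes. The mixture of forms among the control females and its absence from the high-dose males enter these differences as well. Between CONF and CONSC none of the 10 genes was called in males (log2 fold changes -0.03 to 0.23, 9 of them above 0). Of 15387 genes 0.013% were called there, and 0.988% had an unadjusted p under 0.05. In females none of the 10 was called either (-0.31 to 0.38). There 0% of 16618 genes were called, 713 or 4.29% had an unadjusted p under 0.05, and DESeq2 called 0. The largest value in males was that of ND1, 0.23 (SE 0.07), at 7362 ± 606 CPM in CONF (n = 4) and 6324 ± 328 CPM in CONSC (n = 5), with an unadjusted p under 0.05 but an adjusted p of 1.0.

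Nuclear genes of the same complexes, such as the NADH dehydrogenase subunits of the Nduf series and the ATP synthase subunits, did not share the Aro0.5 difference at its size. Of 76 such genes 73 were tested in low-dose males. In Aro0.5 edgeR called none and DESeq2 called 1. By edgeR's test 16 of the 73 stood at an unadjusted p under 0.05, against 18.5% of all genes tested. Their median log2 fold change in Aro0.5 males was 0.10, against 0.44 for the 10 mitochondrial genes and 0.00 for all genes. By complex, the medians were 0.09 for complex I, 0.10 for complex II, 0.14 for complex III, 0.11 for complex IV and 0.13 for ATP synthase. In BPA0.5 and CPF1 males the 73 nuclear genes had medians of -0.02 and 0.06. In high-dose males 72 were tested, with medians of -0.08, -0.05 and -0.07 in Aro5, BPA5 and CPF3. None was called by edgeR, and 2, 0 and 0 were called by DESeq2. By edgeR's test 15, 12 and 19 of the 72 had an unadjusted p under 0.05. This was a larger share than the 11.8%, 9.1% and 12.6% of all genes, and the excess was not tested. In females the medians were -0.03, -0.08 and -0.09, and none was called by edgeR or DESeq2. There 3, 7 and 11 had an unadjusted p under 0.05, against 3.23%, 4.08% and 8.79% of all genes.

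Genes for the copying, transcription and RNA handling of the mitochondrial genome were compared as well. Of 34 such genes, none was called in Aro0.5 males by edgeR or DESeq2, with a median log2 fold change of 0.06. Only 1 had an unadjusted p under 0.05, against 18.5% of all genes tested. The RNA polymerase of mitochondria, Polrmt, had -0.10, the transcription and packaging factor Tfam 0.08 and the DNA polymerase Polg 0.06. Lrpprc and Slirp, a pair of proteins that stabilise mitochondrial mRNAs, had -0.05 and -0.09, and the poly(A) polymerase Mtpap had 0.06 (adjusted p = 0.58 to 0.72 for these 6 genes by edgeR). The summed level of 9 nuclear genes that follow the amount of mitochondria was 1498 ± 60.4 CPM in Aro0.5 (SD, n = 4) and 1471 ± 63.5 CPM in control males (SD, n = 9), and none of the 9 was called. In high-dose males none of the 34 genes was called by edgeR or DESeq2, with medians of -0.03, -0.06 and -0.08 in Aro5, BPA5 and CPF3. Of them 5, 8 and 4 had an unadjusted p under 0.05, against 11.8%, 9.1% and 12.6% of all genes. The sum of the 9 genes that follow the amount of mitochondria was 1376 ± 45.7 CPM in high-dose males (SD, n = 20), below the mean of control males. This difference was not tested, and the high-dose male libraries were of form B.

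Across pups the genes fell into blocks, which is given as a description, since the levels share library and depth. After the mean of each group was taken away, COX1, COX2, COX3, CYTB, ATP6 and ND1 correlated with each other at Pearson's r of at least 0.93 over 64 pups, and ND2 with these 6 at 0.81 to 0.90. ND4 and ND5, which follow each other on the genome with tRNAs between them, correlated at 0.83 with each other and at 0.32 to 0.61 with the other 7 heavy-strand genes. ND6 had r from -0.15 to 0.43 with the other 9, lowest with ND4. CONF and CONSC females each held libraries of both name forms, so that the form differences of ND6 and ND4 enter these deviations. What the form contributed to the values of r was not tested. The nuclear genes whose deviations from group means (log2 of CPM) were most like the mean of the 9 genes other than ND6 over 64 pups, out of 11803 compared, were Scn3b, a sodium channel subunit (r = 0.72), Pcp4, a calmodulin-binding peptide (r = 0.69), Rab5b (r = 0.68), Ccdc104 (r = 0.68) and Hsbp1 (r = 0.67). The count ratio of ATP6 to COX2, 2 genes that lie close together on the heavy strand, was 1.68 ± 0.0802 in control males (n = 9), 1.91 ± 0.0493 in high-dose males (n = 20), 1.91 ± 0.0942 in control females (n = 10) and 2.02 ± 0.110 in high-dose females (n = 13). This ratio moved with the form as well. The low-dose males, of form A, had 1.72 ± 0.0779 (n = 12), and the form B library stood above the form A library in both pups with 2 libraries, at 1.95 against 1.76 in N2-2y and 2.12 against 1.96 in N4-3x.

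**Figure D5:**
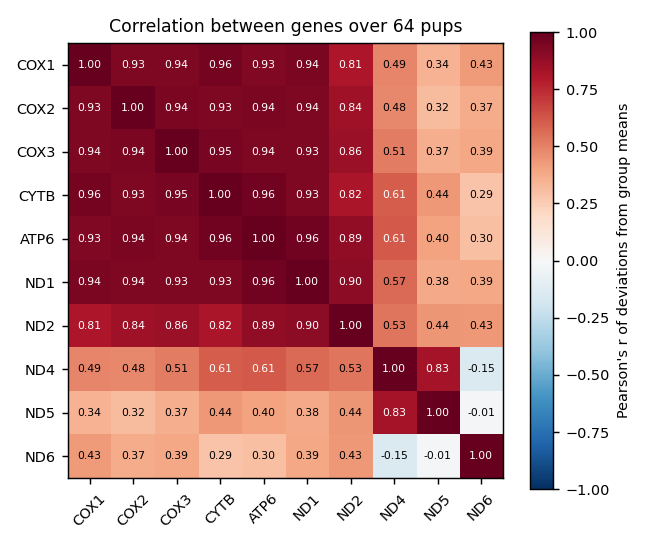
Pearson's r (colour scale from -1 to 1, value in each cell) between the deviations of each pair of genes from their group means over 64 pups (both axes list the 10 genes). COX1, COX2, COX3, CYTB, ATP6, ND1 and ND2 form a block of high values, ND4 and ND5 a pair at 0.83, and ND6 stands apart with r from -0.15 to 0.43. The groups of control females hold both forms of library name, which enters the deviations.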

How the data were processed

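For each of 66 libraries, made from poly(A) RNA with a stranded kit, the authors deposited raw read counts per gene, made with the aligner STAR on build Rnor_6.0 and with featureCounts. How reads with several matches (as to nuclear copies of mitochondrial DNA) were treated, whether strand was used in counting, and the tools' versions are not given in the sources used here, so that counts of ND6, which lies opposite to the other genes, may hold reads of the other strand. The labels name a NovaSeq and the study's methods a HiSeq sequencer.

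Groups, sex and pup came from the sample labels, and the 2 libraries of a pup were summed. Counts were tested in edgeR 4.0.16 (R 4.3.3) by the quasi-likelihood F test, after TMM normalization and a filter on low counts (filterByExpr with the groups). P-values were adjusted after Benjamini and Hochberg over every gene in a fit, and a gene was called at an adjusted p under 0.05. Separate fits were made for males of each dose level, for females, for the controls of each sex by route, and for the interaction of sex and treatment. The SE is the log2 fold change divided by the square root of F. All 10 genes passed the filter in every fit. The scripts were tested on simulated counts. Levels are counts per 1000000 counts of all genes (CPM; numpy 2.4.6, pandas 2.3.3 and scipy 1.17.1 under Python 3.11.15) and are not scaled by gene length, so that levels of different genes are not compared. Figures were drawn with matplotlib 3.10.9. Pups are separate animals, and p-values measure the spread between them.

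The 10 genes and the lists used for comparison were chosen with earlier results of these data known. The text names the 10 genes, other mitochondrially encoded genes and 6 genes of mitochondrial transcription and RNA fixed by name, and the 5 nuclear genes with the highest correlation among those with a mean of at least 5 CPM. Alternatives were DESeq2 1.42.0, its size factors in edgeR, normalization without the mitochondrial genome, no filter beyond 1 count, the study's time window, controls of the same route, the 2 groups compared alone, 1 pup per litter and sex, name form as a covariate, form A libraries alone, each pup left out, and the litter as a replicate block.

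Pups of both sexes came from the same litter in 18 litters (38 pups). The correlation of their deviations from group means ran from -0.251 to 0.350, with a median of -0.0927 and 4 litters over 0.1. By this measure littermates did not deviate together in most of these litters. The deviations come from small groups, and those of control females hold both name forms. The litter pairing is known from the labels alone.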

Additional observations from a re-analysis of the deposited data

Results flagged for a closer look

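The 10 genes and their share of the library were examined in each of the 13 groups of 4 to 7 pups for a single value far from the others. Over these 143 sets of values 5 were marked by Dixon's criterion, which chance alone meets in about 1 of 20 sets, all of 1 pup. The genes correlate across pups, so that these 5 marks are not independent. Aro5 female 120-3x was the lowest of its 5 pups for ND1 (5441 CPM), ND2 (5276 CPM), COX2 (4781 CPM) and COX3 (6899.7 CPM), and for the share of the library in the 10 genes (5.64%). The other 4 Aro5 females had shares of 7.49% to 8.02%.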

How the results depend on the processing

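Of 143 counts of called members recomputed under other settings, 133 stayed on the side of the main value. With 1 pup left out 322 did and 3 did not, all in Aro0.5 males. Most of these comparisons had no member called in the main fit and could not lose a call. These totals therefore do not measure how stable the calls were. In Aro0.5 males 7 members were called, against 0 with controls of the same route, 0 in the time window and 0 to 7 with 1 pup left out. Aro0.5 against CPF1 gave 0 in edgeR and 7 in DESeq2. In high-dose males the single call of ND6 became 0 in Aro5, 0 in BPA5 and 0 in CPF3 with the name form as a covariate. That setting called 0 of 16391 genes. ND6 then turned above 0, to 0.037 in BPA5 and 0.083 in CPF3. With the form B library of N2-2y as the only control it was 0.032 and 0.079. The time window gave 2 members in Aro5, ND6 and ND5 (0.52, adjusted p = 0.039). Why these values moved was not tested, beyond the smaller number of pups that same-route controls and the time window leave.

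Among all genes, calls with all pups ran from 0 in the time window to 269 in DESeq2 for Aro0.5 males (20 in the main fit), from 0 with the form as a covariate to 818 in the time window for Aro5 males (32), and from 0 with the form as a covariate to 63 and 82 in DESeq2 for BPA5 (31) and CPF3 males (26). With 1 pup left out they ran from 0 (without 94-3y) to 322 (without control 8-4y) in Aro0.5 males, and were 1 without 106-3y, 2 without 98-8y, 12 without control N2-2y, 12 without control 11-4y and 13 without control 13-1y. They ran from 25 to 176 (without 108-1y) in Aro5 males, with 67 without control N2-2y, and from 25 to 39 in BPA5 and 17 (without 35-5y) to 41 (without control 10-2y) in CPF3 males. With the litter as a replicate block the ND6 interactions were 0.84 (adjusted p = 0.14), 0.77 (0.93) and 0.53 (0.61) for Aro5, BPA5 and CPF3, and 3, 0 and 0 genes in all were called, against 17, 7 and 8 without it. Other settings gave 3 to 609, 0 to 15 and 1 to 16, with 609 in the time window and the upper counts of BPA5 and CPF3 in DESeq2. The block changed no call among the members. Leaving out single pups was not run for the interactions. Of the 76 nuclear respiratory chain genes, 10 were called in Aro5 males in the time window, 2 in DESeq2 and 1 with normalization without the mitochondrial genome, and 0 in the main fit. The 319 to 2834 counts of ND6 per library limit its precision more than that of the other members.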

Other observations

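Among the tRNA entries of the mitochondrial genome, Trni and Trnw were far higher in female than in male pups. Trni had 0.735 ± 0.249 CPM in 41 males (0.243 to 1.34) and 26.9 ± 4.76 CPM in 23 females (13.7 to 34.7), and Trnw 0.512 ± 0.257 CPM in males and 24.3 ± 7.94 CPM in females (5.61 to 43.1), with no overlap between the sexes. Of 17282 genes, 17 (0.0984%) had every female above every male. The 2 libraries of female N4-3x had 31.0 CPM of Trni in form A and 27.9 CPM in form B, so that this difference did not follow the form. ATP8 had 2618 ± 337 CPM in males and 3277 ± 407 CPM in females. These differences were not tested, and whether males and females were sequenced together is not stated. The study mentions that female samples were sequenced a second time.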
